A study of Rattus norvegicus with 12 samples.

Results

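The genes that copy DNA and drive cells through S phase were compared between A16 and Tumor cells. The group was a list of 36 genes, and its members were found by their gene symbol in the platform annotation of the array. Of these, 35 were measured among 14217 genes in all, and Gins2, a subunit of the GINS complex, had no probe set of its own. F111 is a fibroblast line of the Fischer rat that the paper calls normal. Its karyotypes nevertheless showed aneuploid F111 cells, and more chromosomal changes in cells derived from tumours. A16 cells were F111 cells kept adherent on plastic for 16 h. NA16 cells, which are F111 cells held for 16 h without adhesion, were injected under the skin of nude mice, and Tumor cells were cultured from the tumours recovered after 3 months. The labels named no genetic change or drug in either group. Nude mice lack T cells but keep other leukocytes. Each group had 3 arrays, made up of biological replicates 1 and 2 and a technical replicate 2. The labels give technical replicate 2 no biological number, and it was averaged with replicate 1, so that n = 2. The labels gave the same serum for all cells, whereas the methods gave more serum to tumour explants, and serum and group cannot be told apart. Per the methods, A16 cells were trypsinised and plated anew 16 h before collection, whereas Tumor cells had left explants cultured for a week. Time in culture and group cannot be told apart either. The number of tumours behind the Tumor arrays was not given.

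Before a cell divides, the origin recognition complex, with Cdt1, loads the MCM helicase on DNA in G1, a step called licensing, and geminin blocks a second round of loading. In S phase Cdc45 and GINS switch the helicase on, polymerase alpha and primase lay down primers, and polymerases delta and epsilon extend them on the PCNA clamp, which replication factor C loads. Many of these genes are transcribed under E2F factors, which the retinoblastoma protein restrains until cyclin E and other kinase partners release them. In fibroblasts the transcripts rise when resting cells are stimulated to divide. The arrays measured bulk RNA, so that fewer cells in S phase and less RNA in each such cell cannot be told apart.

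Promoters of the group were read from RefSeq (build GRCr8) as windows from 250 bases before to 50 bases after a transcript start, which were given for 32 of the 36 genes. The E2F motif was searched on both strands as TTTCGCGC, TTTGGCGC, TTTCCCGC or TTTGCCGC. It was present in 16 of the 32 promoters (50%), against 651 of 27457 genes with a promoter (2.37%) and 439 of 11733 such genes measured on the array (3.74%). A few promoters that held the motif are shown, from genes that fell and from a gene that did not pass. Uhrf1 fell more than 3-fold, Rfc3 and Mcm5 fell in the clamp loader and the helicase, and Pola1 did not pass the test and lay above the group median. Rfc4 and Prim2, the members that rose, had no such motif in their promoters. Capitals mark the motif matches, and each sequence runs 5′ to 3′ on the strand of its gene. The windows were chr9:1222936-1223235 (plus strand) for Uhrf1, chr12:5836318-5836617 (plus) for Rfc3, chr19:13488563-13488862 (plus) for Mcm5 and chrX:62342306-62342605 (minus) for Pola1. Uhrf1 also had windows starting at 1221813 and 1222050, and its E2F matches lay only in the one printed. Several windows were read for 2 genes, which gives a motif more chances to match.
Uhrf1: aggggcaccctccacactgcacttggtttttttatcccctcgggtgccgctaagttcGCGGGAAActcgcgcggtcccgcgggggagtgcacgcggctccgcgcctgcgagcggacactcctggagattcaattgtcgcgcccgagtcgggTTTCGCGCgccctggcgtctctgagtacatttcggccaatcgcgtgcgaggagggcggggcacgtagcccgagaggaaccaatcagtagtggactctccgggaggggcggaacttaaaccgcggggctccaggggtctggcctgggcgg
Rfc3: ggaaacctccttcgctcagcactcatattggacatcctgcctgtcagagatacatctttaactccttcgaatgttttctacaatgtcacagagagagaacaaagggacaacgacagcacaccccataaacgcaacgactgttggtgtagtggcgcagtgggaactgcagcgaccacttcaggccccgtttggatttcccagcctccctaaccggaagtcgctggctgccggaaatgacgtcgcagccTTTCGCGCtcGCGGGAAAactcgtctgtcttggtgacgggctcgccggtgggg
Mcm5: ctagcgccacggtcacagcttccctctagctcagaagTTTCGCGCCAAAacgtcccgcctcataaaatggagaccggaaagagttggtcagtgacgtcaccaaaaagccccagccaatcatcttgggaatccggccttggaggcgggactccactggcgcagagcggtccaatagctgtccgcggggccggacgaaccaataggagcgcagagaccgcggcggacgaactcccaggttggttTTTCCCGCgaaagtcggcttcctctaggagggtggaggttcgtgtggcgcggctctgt
Pola1: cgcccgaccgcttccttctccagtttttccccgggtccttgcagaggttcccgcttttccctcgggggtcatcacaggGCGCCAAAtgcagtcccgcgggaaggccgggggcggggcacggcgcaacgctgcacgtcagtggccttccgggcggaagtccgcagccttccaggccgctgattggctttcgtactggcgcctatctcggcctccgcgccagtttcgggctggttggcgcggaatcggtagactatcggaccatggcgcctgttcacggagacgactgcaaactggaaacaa
In Mcm5, and also in Gins1, Mcm2 and Mcm6, a match on one strand overlapped a match on the other by 4 bases. The shorter CCAAT box, bound by NF-Y, was in 18 of the 32 promoters (56.2%, against 39.6% of all genes), and the CHR letters TTTGAA or TTCGAA were in 5 (15.6%, against 21.0%). These are matches of letters and were not tested for binding.

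**Figure D1:**
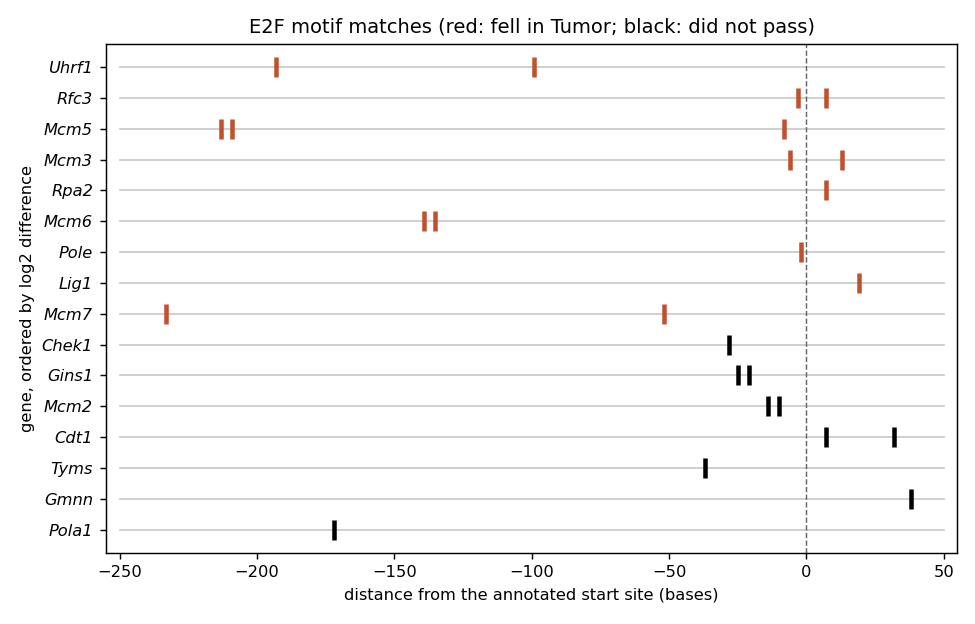
E2F motif matches in the 16 promoters that held one, by distance in bases from the transcript start (dashed line). Each tick is the first base of a match, genes are ordered by their log2 difference, and red marks the 9 genes that fell in Tumor cells; matches lay on both sides of the start in genes that fell and in genes that did not pass.

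Most of the group was lower in Tumor cells. The median log2 difference, Tumor minus A16, was -0.38 over the 35 members (1.3-fold lower), while over all genes it was 0.03. At any size and any p, 30 of the 35 were lower, against 46.8% of all genes. In the limma fit at an adjusted p under 0.05, 18 members fell (51.4%), against 16.6% of all genes, and 2 rose (5.71%), against 17.3% of all genes. The other 15 did not pass. All 35 members lay above the 30th percentile of intensity, and 33 above the median gene. Of genes above the 30th percentile of intensity 20.2% fell and 20.6% rose, and 6.73% fell and 6.68% rose by at least 2-fold. With a fold of at least 2, 3 members fell, namely Orc1, Tk1 and Uhrf1 (8.57%, background 5.45%), and 0 rose (background 5.46%). In limma 0 members rose at least 2-fold at an unadjusted p under 0.05 too. The count of 18 was 9 without Tumor replicate 1 and also 9 without Tumor replicate 2, which leaves that group with 1 sample, and that of 2 was 1 without Tumor replicate 1. The count of 18 was 25 with technical replicate 2 averaged with replicate 2 instead, 23 with all arrays as separate replicates, 15 with technical replicate 2 left out and 12 with PLIER at an offset of 1. The count of 3 was 5 without A16 replicate 2, and Rfc4 rose at least 2-fold without A16 replicate 1 or without Tumor replicate 2. For falls of any size the methods' t-test gave 0 after adjustment and 17 at an unadjusted p under 0.05. The share of all genes called is not given for these alternatives. Their counts therefore do not show whether the members moved apart from other genes.

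Array by array, the mean log2 intensity of the group was 10.42, 10.43 and 10.32 in A16 replicate 1, technical replicate 2 and replicate 2. In Tumor cells it was 9.98, 9.92 and 9.92 in the same order. All Tumor means therefore lay below all A16 means. In 25 members all Tumor arrays lay below all A16 arrays (71.4%, against 27.3% of genes). In 4 members, Pola1, Prim2, Rfc4 and Rpa1, they lay above (11.4%, against 28.6%), and in 6 the groups overlapped. A16 replicate 2 was lower than replicate 1 in 27 of 35 members, with a median of -0.13, and the same held for 63.0% of all genes, with a median of -0.07. Tumor replicate 2 was lower than replicate 1 in 23 members, against 50.3% of genes.

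The array controls also moved with the groups. The added poly-A spikes lay at a mean log2 intensity of 7.51 to 7.99 on A16 arrays and 4.82 to 4.92 on Tumor arrays, while the hybridisation spikes went the other way, from 9.78 to 10.18 in A16 and 10.91 to 11.18 in Tumor. The 3′ minus 5′ difference of the actin probe sets was 0.64 to 0.71 in A16 and 2.25 to 2.37 in Tumor. That of Gapdh was -0.05 to 0.0 in A16 and 0.25 to 0.33 in Tumor. Labelling or RNA quality and group cannot be told apart. Of 10 fibroblast markers, all measured, 4 fell (Col1a1, Thy1, Col1a2 and Fn1, 40%) and the mean log2 level of the 10 was 11.34 to 11.51 in A16 and 10.63 to 10.69 in Tumor. Of 8 leukocyte markers 2 rose (25%, near the 17.3% of all genes), Csf1r by 3.14 and Cd68 by 1.07 on the log2 scale, and the summed intensity of the 8 was 1320 to 1470 in A16 and 1700 to 1790 in Tumor. Ptprc, which marks leukocytes in general, was at 5.13 in A16 and 5.06 in Tumor. Of 8 epithelial markers 2 rose (25%, near the 17.3% of all genes), Krt8 by 1.5 and Cdh1 by 0.93. The other 6 did not pass, and the median difference of the 8 was -0.015. The summed intensity of all 8 was 956 to 1080 in A16 and 2240 to 2480 in Tumor. Most of that sum was Krt8, at a log2 level of 9.52 in A16 and 11.02 in Tumor. Their part in the results was not tested.

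**Figure D2:**
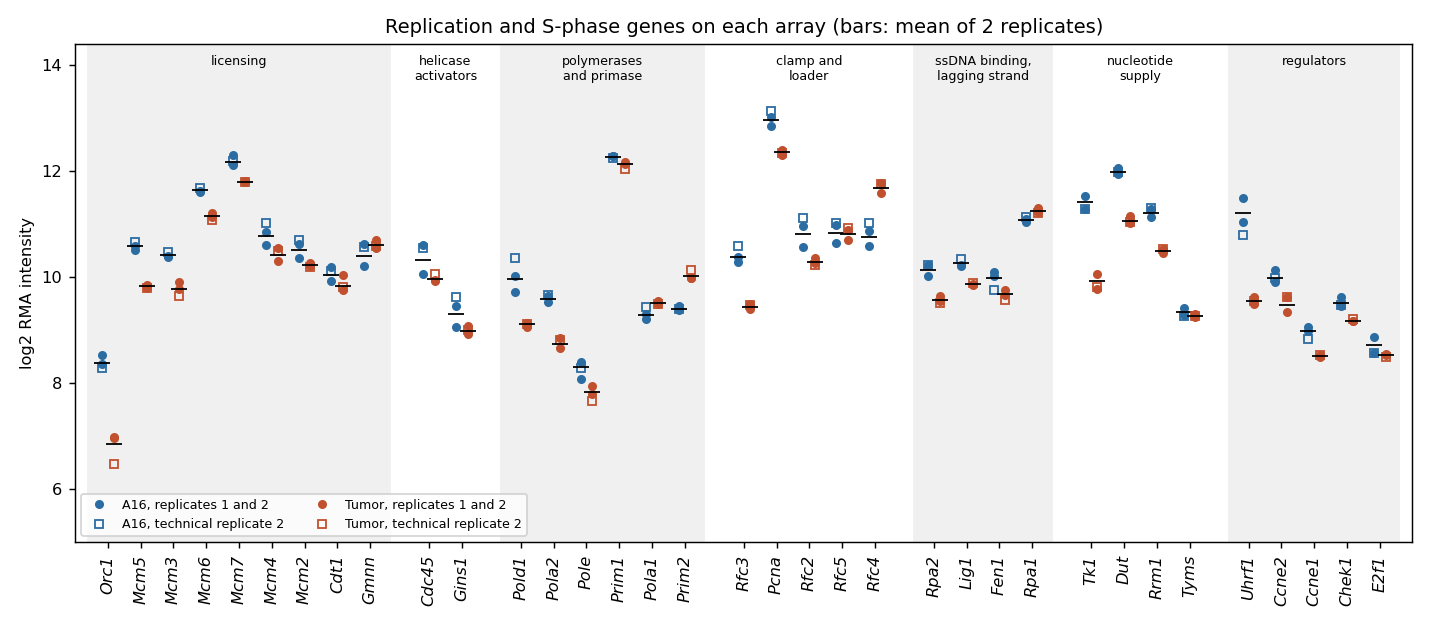
Log2 RMA intensity of each of the 35 measured genes, grouped by role, on every array. Filled points are replicates 1 and 2, open squares are technical replicate 2, black bars are the mean of the 2 replicates, and the Tumor points lie below the A16 points in 25 genes.

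The roles below hold 2 to 9 measured genes each. Their counts are to be read against the 16.6% of all genes that fell and the 17.3% that rose, and no role was tested as a set. Licensing genes fell in 5 of 9, with a median log2 difference of -0.38, and none rose. Orc1, the largest subunit of the origin recognition complex, had log2 intensities of 8.53, 8.29 and 8.37 on the A16 arrays (replicate 1, technical replicate 2, replicate 2, the order used from here on) and 6.97, 6.48 and 6.99 on the Tumor arrays. Every Tumor array was more than a log2 unit below every A16 array. Its transcript fell 2.9-fold (log2 difference -1.54 ± 0.13, SE, n = 2 per group, adjusted p = 0.000368). Of the helicase subunits, Mcm5 fell by 0.76 and Mcm3 by 0.65, Mcm6 fell by 0.48, and Mcm7 fell by 0.38 on the log2 scale (adjusted p = 0.00275, 0.005, 0.0186 and 0.0458 in limma). The call of Mcm7 was lost in 9 alternatives and kept in 7, while its difference with PLIER was -0.36 (adjusted p = 0.0823). Mcm4 and Mcm2 were at -0.36 and -0.27 and did not pass, although all their Tumor arrays were below their A16 arrays. Cdt1, the loading factor, was at -0.20 ± 0.13 and its groups overlapped. Gmnn encodes geminin, the inhibitor of Cdt1, and read 10.63, 10.57 and 10.22 in A16 and 10.71, 10.59 and 10.56 in Tumor. The arrays of its groups overlapped, and the difference was 0.20 ± 0.15 (adjusted p = 0.4).

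The helicase activators Cdc45 and Gins1 did not pass. Cdc45 read 10.61, 10.55 and 10.07 in A16 and 9.95, 10.07 and 9.93 in Tumor. Gins1, part of the GINS complex, read 9.45, 9.62 and 9.07 in A16 and 9.08, 9.01 and 8.92 in Tumor. In both genes A16 replicate 2 was the low A16 array and reached the Tumor range. The log2 differences were -0.35 ± 0.18 and -0.32 ± 0.17.

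Among polymerase and primase genes 3 of 6 fell and 1 rose. Pold1, the catalytic subunit of polymerase delta, read 10.02, 10.36 and 9.72 in A16 and 9.07, 9.11 and 9.13 in Tumor. The A16 arrays were spread over more than 0.6 log2 units, and all stayed above the Tumor arrays. Pold1 fell 1.8-fold (-0.84 ± 0.17, adjusted p = 0.0104). Pola2, the regulatory subunit of polymerase alpha, fell 1.79-fold (-0.84 ± 0.12, adjusted p = 0.00289). Pole, the catalytic subunit of polymerase epsilon, fell 1.38-fold (adjusted p = 0.042), and this call too was lost in 9 alternatives and kept in 7 (-0.40 with PLIER, adjusted p = 0.0815). Prim1, the small primase subunit, was at -0.14 ± 0.11 and did not pass.

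The remaining subunits of the polymerase alpha and primase complex were higher. Prim2, the large primase subunit, read 9.45, 9.41 and 9.39 in A16 and 9.99, 10.13 and 9.98 in Tumor. The groups stood apart, and Prim2 rose 1.53-fold (0.61 ± 0.11, adjusted p = 0.00683). Pola1, the catalytic subunit, read 9.30, 9.43 and 9.22 in A16 and 9.56, 9.49 and 9.49 in Tumor. Its Tumor arrays were all just above its A16 arrays, but the difference of 0.22 ± 0.12 did not pass (adjusted p = 0.215). Within this 4-subunit complex, therefore, Pola2 fell, Prim2 rose, and Pola1 and Prim1 did not pass.

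The clamp and its loader also moved both ways, with 2 of 5 genes lower and 1 higher. Pcna, the sliding clamp and the brightest member, fell 1.53-fold (-0.61 ± 0.13, adjusted p = 0.0113). Rfc3, a small subunit of the loader, read 10.38, 10.59 and 10.29 in A16 and 9.49, 9.47 and 9.40 in Tumor. All Tumor arrays were lower, and Rfc3 fell 1.92-fold (-0.94 ± 0.12, adjusted p = 0.00178). Rfc4, another small subunit of the same loader, read 10.88, 11.02 and 10.58 in A16 and 11.78, 11.75 and 11.59 in Tumor. All its Tumor arrays were higher, and Rfc4 rose 1.89-fold (0.92 ± 0.16, adjusted p = 0.00562). Rfc2 was at -0.53 ± 0.17 with an adjusted p of 0.0566, and Rfc5 was at -0.03 ± 0.16.

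Of the genes for single-stranded DNA binding and the lagging strand, 2 of 4 fell. Rpa2, the middle subunit of replication protein A, read 10.23, 10.24 and 10.02 in A16 and 9.65, 9.51 and 9.55 in Tumor. The groups did not overlap, and Rpa2 fell 1.48-fold (-0.56 ± 0.12, adjusted p = 0.0143). Rpa1, the large subunit, read 11.09, 11.13 and 11.04 in A16 and 11.30, 11.22 and 11.24 in Tumor. Its Tumor arrays were all above, by a difference of 0.17 ± 0.11 that did not pass. Lig1, which seals Okazaki fragments, fell 1.3-fold (adjusted p = 0.036 in limma), a call lost in 6 alternatives. Fen1, the flap nuclease, was at -0.30 ± 0.13 (adjusted p = 0.118 in limma).

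Nucleotide supply had the lowest median of the roles, -0.82, with 3 of 4 genes lower. Tk1, the thymidine kinase of the salvage pathway, read 11.28, 11.28 and 11.54 in A16 and 9.78, 9.82 and 10.07 in Tumor. The lowest A16 array was more than a log2 unit above the highest Tumor array. Tk1 fell 2.78-fold (-1.48 ± 0.15, adjusted p = 0.000725). Dut, the dUTPase that keeps uracil out of DNA, fell 1.89-fold (-0.92 ± 0.11, adjusted p = 0.00143). Rrm1, the large subunit of ribonucleotide reductase, fell 1.65-fold (-0.72 ± 0.12, adjusted p = 0.00487). Tyms, thymidylate synthase of the de novo pathway, read 9.29, 9.26 and 9.42 in A16 and 9.30, 9.27 and 9.25 in Tumor. Its groups overlapped, at a difference of -0.08 ± 0.11.

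Of the regulators 3 of 5 fell. Uhrf1, which brings the maintenance methyltransferase to newly copied DNA, read 11.05, 10.79 and 11.49 in A16 and 9.63, 9.55 and 9.5 in Tumor. The A16 arrays varied more than the Tumor arrays, and all of them were higher. Uhrf1 fell 3.16-fold (-1.66 ± 0.19, adjusted p = 0.00124). This was the largest fall of the group with RMA and in 9 of 15 alternatives. Some of those 9 change only the error estimate or the genes tested, so that Uhrf1 stayed at -1.66 and its rank was fixed. Orc1 fell most in 5 of the 15, such as without A16 replicate 2 (-1.555 against -1.373 for Uhrf1), and Tk1 with PLIER (-1.567 against -1.526). Another Tk1 probe set, almost as bright as the one used, was lower than Uhrf1 with RMA, at -1.88 ± 0.12. The rank therefore depends on the choice of probe set too. The cyclins that start S phase also fell, Ccne2 by 1.42-fold and Ccne1 by 1.38-fold (adjusted p = 0.0346 and 0.0229 in limma). Chek1, the kinase that guards stalled forks, was at -0.33 ± 0.11 (adjusted p = 0.0671). E2f1, an activating E2F factor, read 8.57, 8.58 and 8.87 in A16 and 8.54, 8.50 and 8.55 in Tumor. The Tumor arrays were lower by a narrow margin, and the difference of -0.19 ± 0.14 did not pass.

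**Figure D3:**
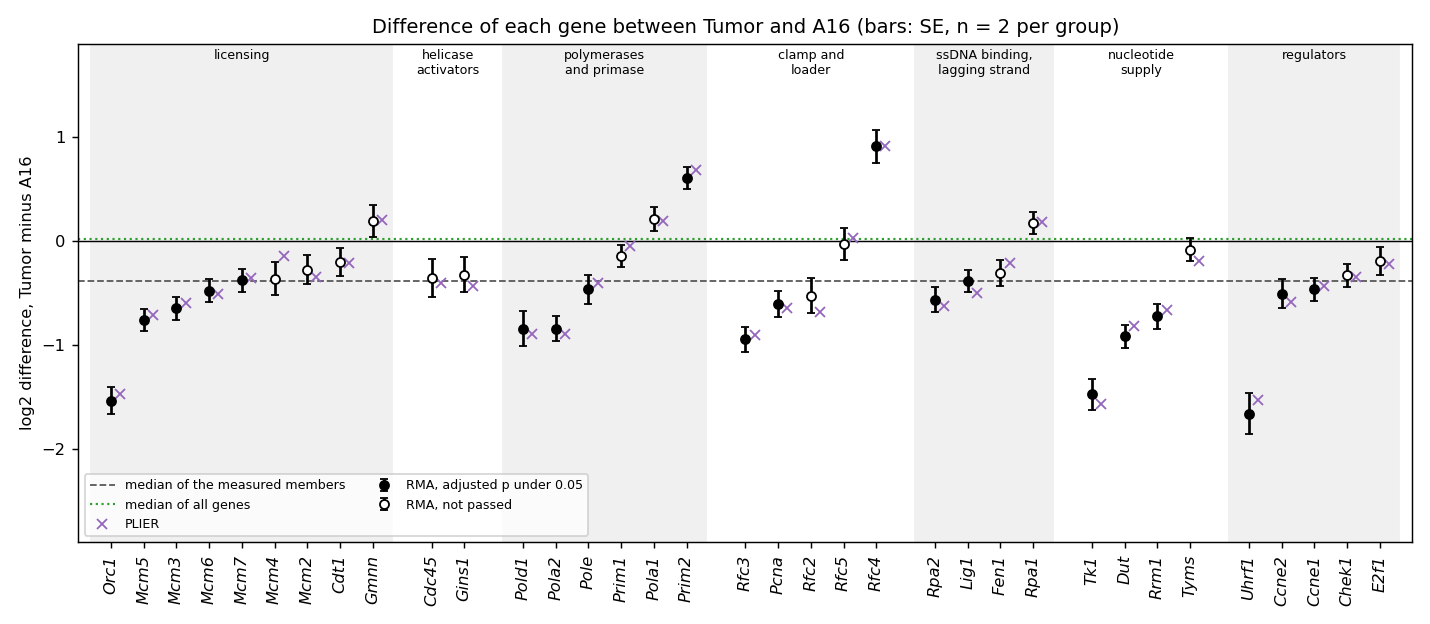
Log2 difference, Tumor minus A16, of each measured gene by role, with SE (n = 2 replicates per group). Filled points passed at an adjusted p under 0.05, open points did not, crosses are the PLIER values, and the lines mark the medians of the group (-0.38) and of all genes (0.03).

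A member was said to depart from the group when it lay at least 1.5-fold (0.585 on the log2 scale) from the group median with RMA and, on the same side, with PLIER. There were 6 such genes. Orc1, Tk1 and Uhrf1 lay below the group, by 1.15, 1.09 and 1.28 log2 units, whereas Rfc4, Prim2 and Pola1 lay above it, by 1.30, 0.99 and 0.60. Pola1 was the last inside the limit, and Gmnn at 0.58 and Rpa1 at 0.56 were the first outside it. All 6 departed in each of 15 alternative analyses, and Gmnn did so in 6 of them and Rpa1 in 7. Part of the 15 could not fail for the 6 genes. Centring and changes of only the error estimate or the genes tested leave these distances as they are, and PLIER was in the definition. With PLIER the group median was -0.43 and that of all genes 0.06.

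The 35 genes lay on 14 chromosomes, whose medians over all genes were between -0.05 and 0.15. On chromosome 11 Rfc4 rose, and Mcm4 and Cdc45 on the same chromosome were at -0.36 and -0.35. On chromosome 9 Prim2 rose, Uhrf1 and Mcm3 fell, and Tyms was at -0.08. The part of the karyotype in these differences was not tested. The measured members with an E2F motif, such as Uhrf1, Rfc3 and Mcm5 printed above, numbered 16, of which 9 fell, with a median of -0.38. Of the 15 measured members whose promoter held no such letters 7 fell, with a median of -0.46.

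Several probe sets were present for 7 members, and they did not all behave alike. The dimmer probe set of Gmnn was at 5.91 in A16 and 7.62 in Tumor, a difference of 1.71 ± 0.14 (adjusted p = 0.00029), against 0.20 for the brighter. The dimmer probe set of Lig1 was at -2.02 ± 0.32 (adjusted p = 0.00385), against -0.38. For Cdc45 the brightest probe set did not pass, while dimmer ones at -0.54 and -1.0 did (adjusted p = 0.0332 and 0.0016 in limma). In Tk1 a probe set almost as bright was at -1.88 ± 0.12, and the dimmest was at -0.11 ± 0.11. The dimmer probe set of Ccne2 was near the 30th percentile of intensity (5.43 in A16, 5.59 in Tumor) and did not pass. Rfc5 was at -0.03 and -0.44, and Dut was at -0.92 and -0.49.

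**Figure D4:**
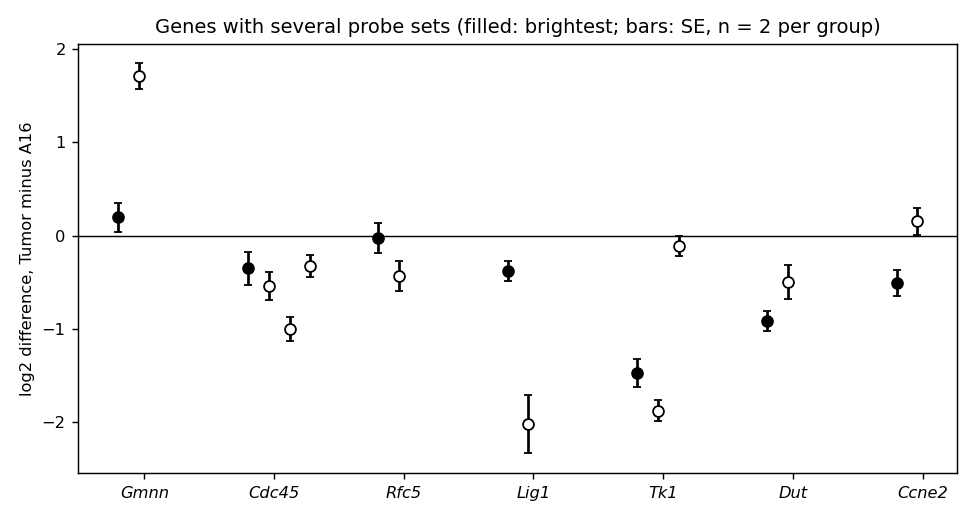
Log2 difference, Tumor minus A16, of each probe set of the 7 genes that had several, with SE (n = 2 replicates per group). Filled points are the brightest probe set of the gene and open points the dimmer ones; the dimmer sets of Gmnn (1.71) and Lig1 (-2.02) lie farthest from the brightest.

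The rest of the replication machinery was compared through lists of other genes. Over 4 such lists, 57 genes were measured, of which 18 fell (31.6%) and 4 rose (7.02%), with a median of -0.21. As given above, 16.6% of all genes fell and 17.3% rose, and each list is to be read against these shares. Among other origin and licensing genes 2 of 14 fell (14.3%, below the share of all genes) and 1 rose (7.14%, median -0.06). These were Orc6 of the origin recognition complex (-1.23 ± 0.12) and Donson, which helps assemble the helicase (-0.62 ± 0.13), and Topbp1, which recruits Cdc45 (0.69 ± 0.12). Among other replisome genes 6 of 19 fell (31.6%) and 3 rose (15.8%, median -0.26). Timeless and Tipin form a single fork protection complex, and Timeless was at -1.39 ± 0.32 while Tipin was at 1.13 ± 0.17 (adjusted p = 0.0167 and 0.00319 in limma). The PCNA partner Pclaf fell by 1.30, and Pold2 of polymerase delta fell by 0.88 on the log2 scale.

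Other nucleotide supply genes fell in 4 of 11 (36.4%, median -0.21), and none rose. Cad, which starts pyrimidine synthesis, and Gart, of purine synthesis, were at -1.09 ± 0.13 and -0.99 ± 0.13. Samhd1, which breaks down dNTPs, and Shmt1, of folate metabolism, were at -0.90 ± 0.16 and -0.90 ± 0.13. Genes of chromatin behind the fork fell in 6 of 13 (46.2%, median -0.32). Cdca7 was at -1.19 ± 0.15, the assembly factors Chaf1b and Asf1b were at -0.86 ± 0.18 and -0.64 ± 0.12, and Dnmt1, the maintenance methyltransferase that Uhrf1 recruits, was at -0.81 ± 0.13.

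Regulators of the retinoblastoma and E2F pathway fell in 13 of 26 (50%, against 16.6% of all genes) and rose in 5 (19.2%, against 17.3%), with a median of -0.42. Ccnd2, cyclin D2, read 10.69, 10.51 and 10.32 in A16 and 5.89, 5.71 and 6.20 in Tumor. All Tumor arrays were more than 4 log2 units lower (-4.46 ± 0.17, adjusted p = 2.17e-05). Cdk2, the partner of cyclin E, and Ccnd3, cyclin D3, were at -2.03 ± 0.18 and -1.73 ± 0.18. Ccnd1, cyclin D1, went the other way, at 1.415 ± 0.112 (adjusted p = 0.000284 in limma). Its mean log2 level was 11.37 in A16 and 12.79 in Tumor, where Ccnd3 was at 9.84. Of the kinase inhibitors, Cdkn1a, Cdkn2b, Cdkn2c and Cdkn1b fell, at -1.695, -1.002, -0.779 and -0.617. Cdkn1c and Cdkn2a, at -0.063 and 0.035, did not pass. Rb1, the retinoblastoma protein that restrains E2F, was at 1.78 ± 0.14. Checkpoint and repair genes fell in 6 of 21 (28.6%) and rose in 3 (14.3%, median -0.27), with Brca1 at -1.64 ± 0.11, Chek2 at -1.03 ± 0.15, Bard1 at -0.91 ± 0.11 and Atr at 0.65 ± 0.13. Genes of mitosis, which follows S phase and G2, fell in 11 of 23 (47.8%) and rose in 2 (8.7%, median -0.36). Of these, Ube2c, Nusap1 and Birc5 were at -1.36 ± 0.15, -1.11 ± 0.11 and -1.10 ± 0.12, and Cenpa, the centromeric histone, was at 1.29 ± 0.18. No difference between these lists and the replication and S-phase group was tested.

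**Figure D5:**
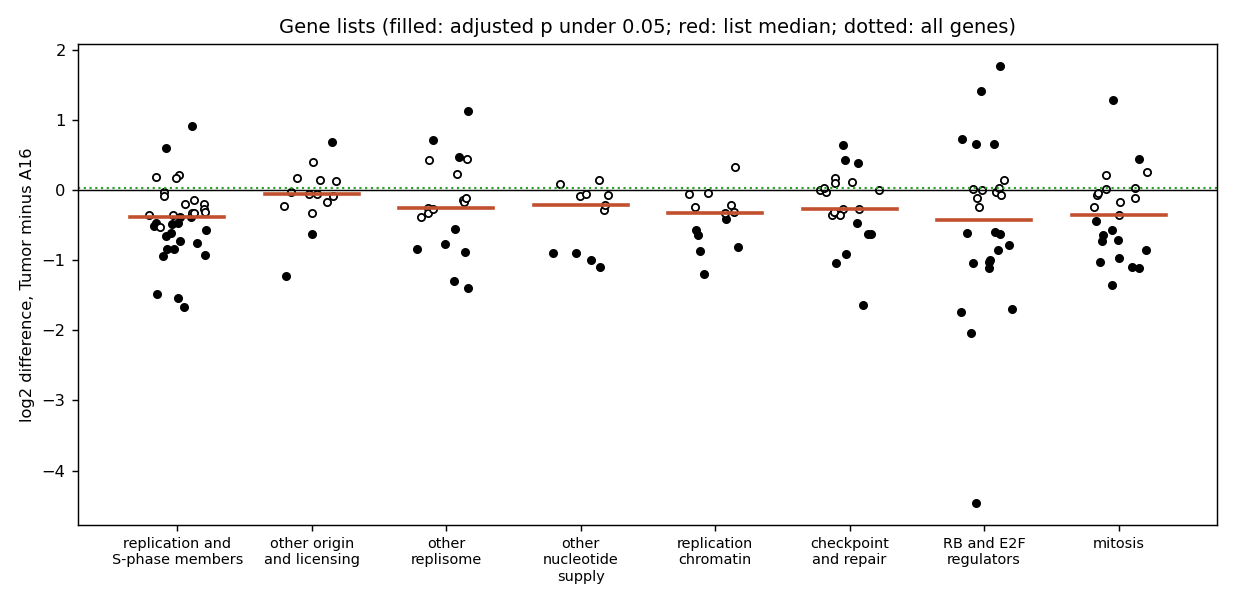
Log2 difference, Tumor minus A16, of every measured gene in the replication and S-phase group and in 7 other lists. Filled points passed at an adjusted p under 0.05, red bars are list medians, the dotted line is the median of all genes (0.03), and the lowest point is Ccnd2 (-4.46).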

How the data were processed

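Affymetrix rat expression arrays of A16 and Tumor cells were analysed. Each array had an RMA and a PLIER record, which were never counted as separate samples. Per the methods, scans were background adjusted in GCOS and normalised in Avadis. Both records were deposited as linear intensity and not as log2 values, so log2 was taken (RMA medians 98 to 100). The lowest PLIER value was 16, so an offset of 16 appeared to be included and none was added. For the alternative offset of 1, 16 was subtracted and 1 added before log2. Detection calls were not used here.

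Technical replicate 2, which has no biological number in the labels, was averaged with replicate 1. Tumor was compared with A16 by limma 3.58.1 in R 4.3.3 (lmFit, eBayes, two-sided, Benjamini-Hochberg over 31042 probe sets without 57 controls), and errors are moderated SE. Symbols came from the platform annotation, which gave 1 symbol to 20826 probe sets and several to 436. The probe set with the highest mean log2 RMA stood for its gene. The fit was also run on simulated data. Its replicates were independent by design, with a spread drawn from the limma fit. The run says nothing about how the real replicates were made. The labels do not state separate cultures or animals, so the spread behind each p-value may be technical.

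The members and lists were chosen with earlier results of these data known. All members were named, with values on every array for genes at least 2-fold changed, for those that departed from the group and for the lowest and highest of each role. Of every other list, up to 4 called genes with the largest difference were named, and cyclin D1 and the kinase inhibitors were added from the retinoblastoma and E2F list. Of the marker list not described in the report, 2 of 7 endothelial genes (Vwf, Pecam1) rose. Alternatives covered PLIER and its offset, a filter at the 30th percentile, centring, quantile normalisation, probe set choice, handling of technical replicate 2, a replicate block, left-out replicates and the methods' t-test. An intensity trend with robust spread was chosen after seeing the data.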

Additional observations from a re-analysis of the deposited data

How the results depend on the processing

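Of the 20 members that passed, 20 kept their direction and 10 also kept their call in all 15 limma alternatives, and 8 others passed in some. The calls of Ccne1, Ccne2, Lig1, Mcm6, Mcm7, Pcna, Pold1, Pole, Prim2 and Rpa2 were each lost in at least 1 of these 15. After Benjamini-Hochberg adjustment the methods' t-test left 0 lower, 0 higher and 0 lower by at least 2-fold, against 17, 3 and 3 at an unadjusted p under 0.05. Leaving out each replicate in turn gave 9 to 21 lower and 1 to 2 higher members, 3 to 5 lower and 0 to 1 higher by at least 2-fold, and a median of -0.49 to -0.36. The low counts were 9 without Tumor replicate 1, 9 without Tumor replicate 2, and, for higher members, 1 without Tumor replicate 1. The count of 5 arose without A16 replicate 2, and the count of 1 higher by at least 2-fold, Rfc4, without A16 replicate 1 or Tumor replicate 2. The group with a replicate left out has 1 sample, assumed to vary like the other group. The member median was -0.445 with PLIER at an offset of 1 in place of 16 and -0.464 when the probe sets of a gene were averaged. Rfc5 changed sign, at 0.032 with PLIER and 0.032 with its offset of 1, and ranged from -0.203 to 0.152 over the left-out replicates, with 0.152 without A16 replicate 1 and 0.08 without Tumor replicate 2. The cause was not tested. With the replicate number as a block, 19 members fell and 2 rose, 3 fell by at least 2-fold, 0 rose so, and the median was -0.38. Same-numbered replicates deviated together at a correlation of 0.12 over only 2 pairs, which does not pair the samples. With 3 arrays a group, signal and replicate number limit the precision. The counts in these alternatives have no share of all genes beside them.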
